A study of Homo sapiens with 4 samples.

Results

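The 5′ untranslated regions (5′ UTRs) described here are those with a high share of ribosome footprints in human melanocytes. For each of the 14355 gene names in the deposited tables, the transcript with most reads over the 4 libraries was kept. A 5′ UTR was a member when it was at least 30 bases long, held at least 5 reads in every library, and took at least 20% of the reads that fell on the 5′ UTR and coding sequence of its transcript, all libraries pooled. The members were thus chosen by their measured 5′ UTR share and 5′ UTR reads, which are given as a description with no test. Of 12851 kept transcripts with a 5′ UTR of that length, 1772 met the read minimum, and 698 of these reached the share. The members were 39.4% of the 1772 and 4.86% of all gene names.

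The cells were Hermes 4B, an immortalised and otherwise wild-type line of skin melanocytes, the cells that make melanin. They received either a control siRNA or one directed at CDH3-AS1, an RNA transcribed antisense to the P-cadherin gene CDH3, each at 25 to 50 nM. Each siRNA had 2 libraries, and libraries with the same number shared a batch. All cells were washed in 100 µg/mL cycloheximide, which holds ribosomes in place, and RNase I then left the RNA pieces that ribosomes cover. The labels do not say that the libraries are of separate cultures, and the spread behind each p-value is therefore that of these samples and may be technical. Exact permutation of 2 libraries against 2 cannot give a two-sided p below 0.333 for a single value.

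Most initiating ribosomes load at the capped end of an mRNA and scan along its 5′ UTR to a start codon. When they meet an upstream start codon, they can translate an upstream open reading frame, a short reading frame ahead of the main one, and footprints then lie in the 5′ UTR. Upstream frames are best known from mRNAs of the integrated stress response and of polyamine synthesis, where they hold back the main protein until conditions change. The 5′ ends of mRNAs for ribosomal proteins carry instead a C followed by pyrimidines, the 5′ terminal oligopyrimidine (TOP) motif, which ties their translation to growth signals.

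Short stretches of 5′ ends are shown for members of these 2 kinds, for TLE1, which encodes a Groucho corepressor, and for CCNI. They come from RefSeq on GRCh38.p14 and lie within the first 50 bases after the transcription start that RefSeq's promoter sequences use, which can differ from the start of the transcript that was counted. For AMD1 it lies downstream of the outermost start of the gene. In the first set the capitals mark an upstream ATG and, where it lies within the stretch and in frame, its stop codon. The genes are ATF4 (chr22:39520577-39520606, plus strand), AMD1 (chr6:110874787-110874816, plus strand), PPP1R15A (chr19:48872446-48872470, plus strand) and TLE1 (chr9:81689518-81689547, minus strand).
ATF4: cgcccacagATGTAGttttctctgcgcgtg
AMD1: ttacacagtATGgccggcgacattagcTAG
PPP1R15A: gttgatcttATGcaagacgctgcac
TLE1: aATGTAAgcggcgcgagaggcgcgggcggc
The ATG of ATF4 and that of TLE1 were each followed directly by a stop codon, and that of AMD1 opened a frame of 6 codons.

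The second set shows the first 20 bases of RPS19 (chr19:41860255-41860274, plus strand), RPLP1 (chr15:69452818-69452837, plus strand), RPL31 (chr2:101002289-101002308, plus strand) and RPS12 (chr6:132814569-132814588, plus strand), which encode ribosomal proteins, and of CCNI (chr4:77075970-77075989, minus strand), which encodes cyclin I. Here the capitals mark the unbroken pyrimidine run at the start.
RPS19: CCCTTTCCCCTggctggcag
RPLP1: CCCCTTTCCTCagctgccgc
RPL31: CTTCCTTTCCaacttggacg
RPS12: CTCTTTCCCTgccgccgccg
CCNI: CTCCCTCCCCagccttcccc
The run was 10 or 11 bases long in each of these 5. It was shorter in other ribosomal protein members, with 9 bases in RPLP0, 7 in RPS10 and 5 in RPL41.

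These 2 features were searched on the transcript strand in the first 50 bases of every gene with a RefSeq entry, and a match is a description of the letters and not a site. An ATG was present in 158 of 570 matched members (27.7%), in 186 of 908 transcripts that met the other criteria with a share under 20% (20.5%), and in 32.4% of 11321 kept transcripts. In a short 5′ UTR the window can reach the main start codon; among 5′ UTRs of at least 100 bases the fractions were 27.6% of 558 matched members and 24.8% of 7630 kept transcripts, so the order of these 2 was turned. With no limit on length, an ATG with an in-frame TAA, TAG or TGA inside the window was present in 48 members (8.42%). The fractions were 5.95% of the 908 transcripts under the share and 5.57% of the 11321 kept transcripts. A start with C and at least 4 more pyrimidines was present in 32 members (5.61%), 6.94% of those under the share and 5.19% of kept transcripts. The pyrimidine start was thus about as common among members as among kept transcripts at large. In the list of TOP mRNAs, made up of ribosomal protein and translation factor genes, 50 of 76 matched genes had it, and 7 of the 11 matched members from that list.

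Library totals ran from 2034854 to 6759850 reads, and the overall 5′ UTR share, taken over all transcripts, was 6.19% and 5.13% in control replicates 1 and 2 and 3.90% and 7.21% in CDH3-AS1 replicates 1 and 2. It was lower with CDH3-AS1 siRNA in batch 1 and higher in batch 2. CDH3-AS1 itself was not analysed here, so the labels were not checked against the targeted RNA. All 7 melanocyte markers had reads in every library, summing to 21447 to 39741 CPM (reads scaled to a common total of coding reads). Control replicate 1 stood apart: 13 of 15 skeletal muscle markers had reads there and summed to 4136 CPM, against 5.36 to 12.9 CPM from 3 to 8 markers in the other libraries. Its fibroblast markers, 3 of 6 with reads, summed to 492 CPM, against 0.533 to 4.88 CPM. In bulk libraries, more cells of a type and more RNA per cell cannot be told apart. None of the markers was a member, and the part of that RNA in the results was not tested. Choosing members without that library gave 797, which included 669 of the 698.

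The members took a large share of 5′ UTR footprints from a small share of coding footprints. They held 24.2%, 26.4%, 25.3% and 24.3% of all 5′ UTR reads in control replicate 1, CDH3-AS1 replicate 1, control replicate 2 and CDH3-AS1 replicate 2, the order used for all lists of 4 values below. Of coding reads they held 2.24%, 2.14%, 2.18% and 2.10%. Both fractions were nearly level over the libraries, while the overall 5′ UTR share was not.

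With all members pooled, the 5′ UTR share was 41.6% (95% interval 41.2 to 42.0), 33.3% (33.1 to 33.5), 38.6% (38.4 to 38.8) and 47.4% (47.1 to 47.7). Relative to the library's overall share this was 6.72, 8.55, 7.53 and 6.57 times. The library with the lowest share thus had the highest multiple, and the library with the highest share had the lowest. Group means of the share were 40.1% ± 2.11 (SD, n = 2) for the control and 40.4% ± 9.92 (SD, n = 2) for CDH3-AS1 siRNA, and those of the multiple were 7.12 ± 0.572 and 7.56 ± 1.40 (SD, n = 2). The siRNA groups overlapped in both measures.

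**Figure D1:**
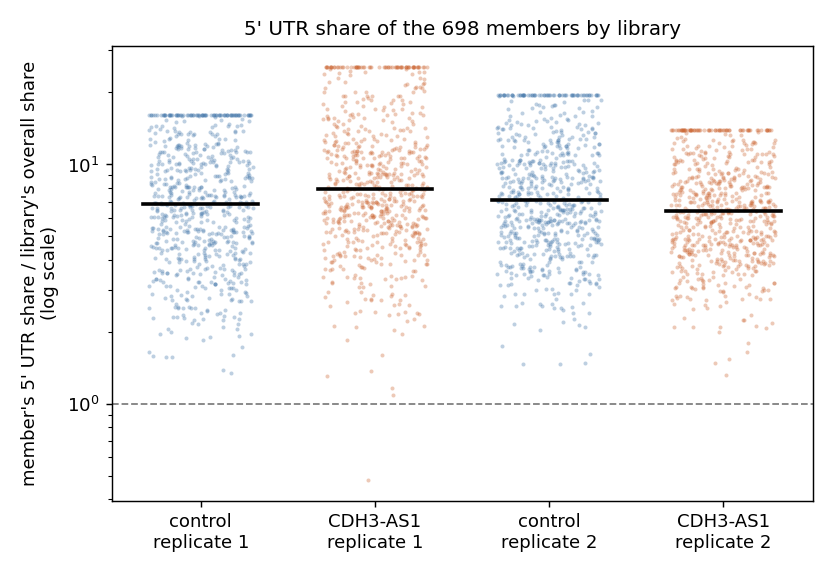
Each point is 1 of the 698 members in 1 library; the vertical axis (log scale) is its 5′ UTR share divided by that library's overall 5′ UTR share, the bar is the median and the dashed line marks a share equal to the overall one. The medians were 6.86, 7.91, 7.13 and 6.42, and the rows of points at the top of each column are members at 100%.

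Member by member, 697 of 698 stood above the overall share in every library, and 446 reached 20% in every library. The exception was RILPL1, whose share was 1.87% in CDH3-AS1 replicate 1, which is 0.48 times the overall one. Relative to the overall share, 349 members were highest in CDH3-AS1 replicate 1 and 292 were lowest in CDH3-AS1 replicate 2, so the libraries of 1 siRNA held both ends. The division bears on this order. A level share gives its highest multiple where the divisor is smallest, in CDH3-AS1 replicate 1, and its lowest in CDH3-AS1 replicate 2. At a share of 100% the multiples were 16.2, 25.6, 19.5 and 13.9, and the 61 members with no coding read on the kept transcript all had these. In 117 members (16.8%) both batch 2 libraries were above both batch 1 libraries, and in 195 (27.9%) the reverse held. Both CDH3-AS1 libraries were above both controls in 35 members (5.01%) and below them in 47 (6.73%). In transcripts that met the other criteria with a share under 20%, these 4 fractions were 23.6%, 33.8%, 7.26% and 9.87%.

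Pooled shares were spread over the whole range above the threshold. Their median was 36.4%, with quartiles of 26.4% and 56.1%; 253 members lay between 20% and 30%, and 76 at 90% or more. Just inside the threshold were FAM20B, DUSP6 and CENPB, which rounded to 20%, and MT1E (20.1%), and just outside were CREBRF (19.9%), RUNX1 (19.9%), PPIP5K2 (19.9%) and SLF2 (19.8%). The reads behind a share were few for many members: 168 had 5 to 9 reads in their lowest library, and 135 had at least 50 in each.

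Which transcript a read was given to changed the share of many members. The kept transcript had no coding read at all in 61 members, of which 48 had coding reads on another transcript of the same gene name. In 123 members another transcript had more coding reads than the kept one. Over all transcripts of the gene name, 640 members still had a share of at least 20% and 58 did not, the lowest being CHP1 at 9.74%. Of the 205 members at 50% or more on the kept transcript, 150 were also at 50% or more over the gene name, the measure called the gene share below.

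The other 13 of the 61 had no coding read anywhere under their name. Among them, BMI1, which encodes a Polycomb protein, had 236 reads in its 5′ UTR, while the readthrough name COMMD3-BMI1 held 478 coding reads. NME2, which encodes a nucleoside diphosphate kinase, had 235, and NME1-NME2 held 2759 coding reads. C17orf49 had 106, and RNASEK-C17orf49 held 254 coding reads. Where along the readthrough transcripts those coding reads lay was not analysed here. Members from families with near-identical copies, such as ribosomal proteins and metallothioneins, are uncertain, since reads could be split between copies, and so are the readthrough members RPS10-NUDT3, ST20-MTHFS and TMED7-TICAM2.

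Members had long 5′ UTRs. The median length was 441.5 bases (quartiles 276 and 674, range 57 to 2732), against 274 in transcripts that met the other criteria with a share under 20% and 185 in all kept transcripts of at least 30 bases. A length of 500 bases or more was found in 286 members (41.0%), against 16.9% and 12.0%. A longer 5′ UTR can collect more reads at the same density, and length also bears on the read minimum, so these figures describe what the rule picked. Among transcripts that met the read minimum, members made up 19.0% at 30 to 100 bases, 32.5% at 200 to 300, 57.7% at 500 to 1000, and 74.2% (72 of 97) at 1000 or more. Coding sequences of members were shorter, with a median of 1029 bases against 1519.5 under the share threshold.

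**Figure D2:**
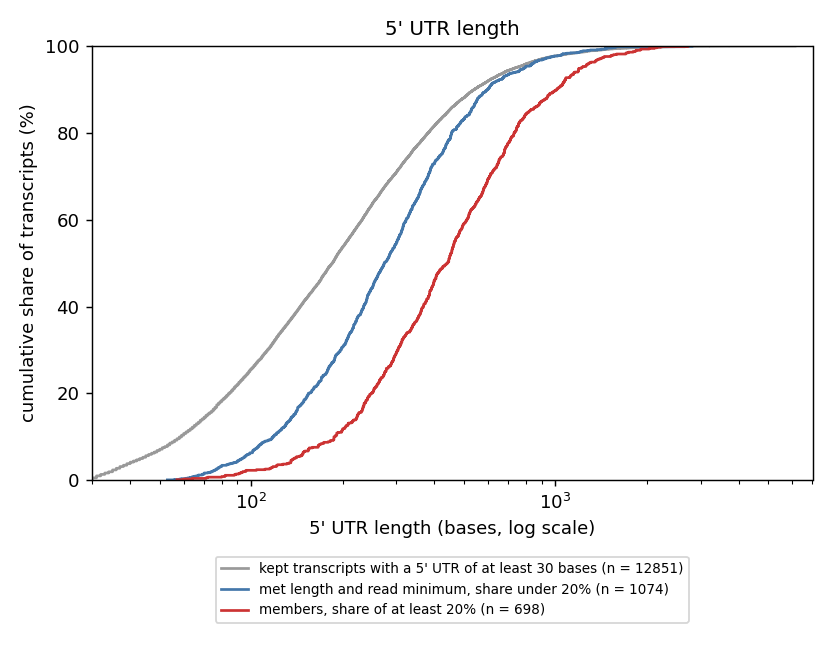
Cumulative share of transcripts (vertical axis, percent) by 5′ UTR length (horizontal axis, bases, log scale) for the 698 members, the 1074 transcripts that met the length and read minimum with a share under 20%, and all 12851 kept transcripts of at least 30 bases. The curve of members lies to the right of both others, with medians of 441.5, 274 and 185 bases.

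Per base, most members were read at least as densely in the 5′ UTR as in the coding sequence. The ratio of reads per base was at least 1 in 498 members (71.3%), 61 of them with no coding read, and in 14.4% of transcripts under the share threshold. Its median was 1.45 in the 637 members with coding reads and 0.451 below the threshold. The ratio uses the same reads as the share that split these sets, so the contrast follows in part from the rule. Over the 1772 transcripts that met the read minimum, the share correlated with log2 length at r = 0.32 (Spearman's rho 0.42), and over the 698 members at r = 0.10 (rho 0.14). These are correlations across transcripts of the same 4 libraries, and transcripts are not independent replicates. Footprints in 3′ UTRs, which the rule used only in choosing the transcript, took a median of 0.885% of a member's reads and 0.740% below the threshold.

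The ends of the length range differed in how many reads they held. MARCHF4, a membrane-bound ubiquitin ligase, had a 5′ UTR of 2223 bases with 39, 194, 212 and 194 reads, and its share was 90.7%, 84.0%, 90.6% and 89.0%. That is a nearly level share in all 4 libraries from a gene with a single listed transcript. ZNF75D, a zinc finger gene, had the longest 5′ UTR of all, 2732 bases, but only 5 to 14 reads in a library. The third, C6orf62, had 2157 bases. At the short end, the histone gene H2BC12 had 57 bases and 25, 53, 35 and 7 reads, with shares of 18.8%, 28.2%, 22.7% and 9.46%. FABP5, which encodes a fatty acid-binding protein, had 60 bases and no coding reads, and GTF3C6, a subunit of the polymerase III factor TFIIIC, had 64 bases and a share of 38.1%.

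Genes known for regulatory upstream frames were well represented. Of 25 listed, 24 were measured, 12 met the length and read minimum, and 8 were members (AZIN1, PPP1R15A, AMD1, SAT1, MKKS, ATF5, MIEF1 and ATF4). That is 33.3% of those measured, against 4.86% of all gene names, and 66.7% of those that met the minimum, against 39.4%. The list was drawn up with earlier results of these data known. The other 4 that met the minimum were under the threshold: MDM2 (9.80%), CEBPB (9.11%), VLDLR (6.62%) and SLC7A1 (5.74%).

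ATF4 (chr22:39520559-39522686), the transcription factor at the centre of the integrated stress response, held 41, 160, 45 and 39 reads in a 5′ UTR of 773 bases and 98, 436, 45 and 33 in its coding sequence. Its share was 29.5%, 26.8%, 50.0% and 54.2%, or 4.76, 6.88, 9.74 and 7.52 times the overall share. Both batch 2 libraries were above both batch 1 libraries, and the siRNA groups overlapped. The related factor ATF5 held 23, 114, 27 and 18 reads in its 5′ UTR, with shares of 42.6%, 46.3%, 81.8% and 52.9%, or 6.88, 11.9, 15.9 and 7.35 times, and gene shares of 68.7%, 45.1%, 53.4% and 59.5%. Its share had the batch order of ATF4 on the kept transcript, but neither its multiple nor its gene share had it.

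PPP1R15A (chr19:48872421-48876058) encodes the phosphatase subunit that reverses the stress signal on initiation factor 2. It held 602, 1757, 518 and 484 reads in a 5′ UTR of 449 bases, among the most of any member. The kept transcript had only 15 coding reads, so its share of 99.6% rests on the transcript chosen, and the gene share was 48.7%, 41.5%, 39.9% and 49.4%. By that measure, not divided by the overall share, the 4 libraries lay close together.

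A set of 3 members from the list act on polyamines, the small cations whose level feeds back on translation. AZIN1, which encodes antizyme inhibitor, held 257, 446, 239 and 168 reads in its 5′ UTR and no coding reads on the kept transcript, with gene shares of 75.1%, 65.7%, 42.8% and 63.6%. AMD1, the adenosylmethionine decarboxylase gene, held 45, 66, 33 and 44 reads, with gene shares of 57.7%, 52.4%, 24.6% and 62.9%. Control replicate 2 was lowest for both. SAT1, which encodes spermidine acetyltransferase, held 25, 65, 41 and 6 reads, with shares of 58.1%, 58.6%, 49.4% and 31.6% on the kept transcript, and here CDH3-AS1 replicate 2 was lowest.

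The remaining members of the list were MIEF1, a mitochondrial fission regulator, and MKKS, a chaperonin-like protein. MIEF1 had gene shares of 31.7%, 42.0%, 31.1% and 42.7%, higher in both CDH3-AS1 libraries than in both controls. Its 5′ UTR reads were 13, 72, 26 and 23, and its multiples on the kept transcript were 3.50, 11.1, 6.41 and 6.94, in the same order of groups. MKKS had gene shares of 83.3%, 28.8%, 51.0% and 72.1% from 15, 16, 48 and 47 reads on the kept transcript, with both siRNA groups spread widely.

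Of 39 growth and survival regulators measured, 16 met the minimum and 7 were members (TGFB1, CDK6, SMAD7, CDKN1B, FOXO3, PIM1 and LEF1), which is 43.8% of those that met it and 17.9% of those measured. TGFB1, the transforming growth factor, held 111, 240, 250 and 188 reads in a 5′ UTR of 878 bases, with shares of 41.1%, 26.8%, 47.3% and 55.8%. CDK6, a kinase of the early cell cycle, had shares of 50.3%, 39.5%, 23.8% and 28.0%, higher in both batch 1 libraries. CDKN1B, which encodes the cell cycle inhibitor p27, had 43.9%, 38.7%, 15.3% and 19.7%, also higher in both batch 1 libraries.

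Feedback and immediate early genes gave 6 members of 12 that met the minimum and 31 measured (SPRED1, SPRED2, TRIB1, TRIB2, IER5 and DUSP6). SPRED1, an inhibitor of RAS signalling, held 37, 108, 221 and 103 reads, with shares of 44.6%, 54.5%, 64.8% and 74.6%. Relative to the overall share these were 7.20, 14.0, 12.6 and 10.4 times. The share was higher in batch 2 and, within each batch, higher with CDH3-AS1 siRNA, but in the multiple the batches overlapped and the siRNA direction was opposite in batch 2. DUSP6, the phosphatase that switches off ERK, was at the threshold with 28.7%, 21.6%, 12.9% and 19.8%, and its gene share was under it at 14.6%.

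Ribosomal protein and translation factor genes gave 13 members of 19 that met the minimum (68.4%), but of 95 measured (13.7%). All 13 encode ribosomal proteins. RPS19 held 772, 2676, 621 and 646 reads in a 5′ UTR of 191 bases, with shares of 69.2%, 70.8%, 34.3% and 52.4%. RPL31 held 330, 784, 576 and 322 reads and had no coding read on the kept transcript. Its gene share was 57.5%, 60.3%, 63.5% and 57.5%. RPL41, whose coding sequence is only 78 bases, had a gene share of 98.9% overall.

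Other families were closer to the 39.4% of all transcripts that met the minimum. GTPases and their regulators gave 19 members of 37 that met the minimum (51.4%), ubiquitin ligases and adaptors 20 of 42 (47.6%), and zinc finger genes 17 of 38 (44.7%). Of those measured, members were 10.1% of 188, 8.06% of 248 and 3.20% of 532, against 4.86% of all gene names, so zinc finger genes were under the background by this count. Melanocyte genes gave none: of 19 measured, 6 met the minimum, and these lay at 14.1% for the lineage factor PAX3, 14.0% for the melanosome transport gene RAB27A, 5.25% for CDH3, 5.17% for the pigment enzyme gene TYRP1, 0.892% for MLANA and 0.770% for GPNMB. TYRP1 still held 11497 reads in its 5′ UTR, beside 210840 in its coding sequence.

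The members with most 5′ UTR reads were IL24, RPS19, CCNI, MT2A and PPP1R15A. IL24, a cytokine of the IL-10 family, held 544, 3151, 1041 and 400 reads in a 5′ UTR of 275 bases, with shares of 17.2%, 25.1%, 20.1% and 20.1%, so that control replicate 1 was under the threshold. CCNI held 771, 579, 1790 and 677 reads, with shares of 75.8%, 46.9%, 73.5% and 77.2%, but relative to the overall share it was level at 12.2, 12.0, 14.3 and 10.7 times. MT2A, a metallothionein that binds zinc and copper, held 125, 585, 1903 and 891 reads, with shares of 30.8%, 46.1%, 80.4% and 81.1%. The share of MT2A was higher in both batch 2 libraries, while its multiples of 4.97, 11.8, 15.7 and 11.3 overlapped between batches. Its ratio was called in the batch comparison below, with a log2 difference of 2.46 (SE 0.58, adjusted p = 0.00119 by edgeR's quasi-likelihood test). With reads summed over its transcripts it was 2.29 (adjusted p = 0.0527 by the same edgeR test), and the call was lost.

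Further down by reads were PTMA, C6orf62, BTF3, NACA, AVPI1, EIF1, RPL31, RAD23B, SLC7A8 and BAMBI, with 1677 to 3341 reads. EIF1, the initiation factor that guards start codon choice, had shares of 55.4%, 26.7%, 29.4% and 47.4%, or 8.94, 6.85, 5.73 and 6.58 times the overall share. RAD23B, a DNA repair and proteasome shuttle factor, had 40.0%, 35.7%, 28.2% and 47.4%, or 6.45, 9.15, 5.49 and 6.58 times. The siRNA groups overlapped in both measures for EIF1. For RAD23B they overlapped in the share, while both CDH3-AS1 libraries were above both controls in the multiple; its ratio was not called. The TGF-beta pseudoreceptor gene BAMBI had 27.3%, 19.7%, 27.3% and 50.2%, or 4.42, 5.05, 5.33 and 6.96 times the overall share, with CDH3-AS1 replicate 2 the highest in both measures. The amino acid transporter gene SLC7A8 had a pooled share of 25.3% on the kept transcript and a gene share of 17.8%.

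**Figure D3:**
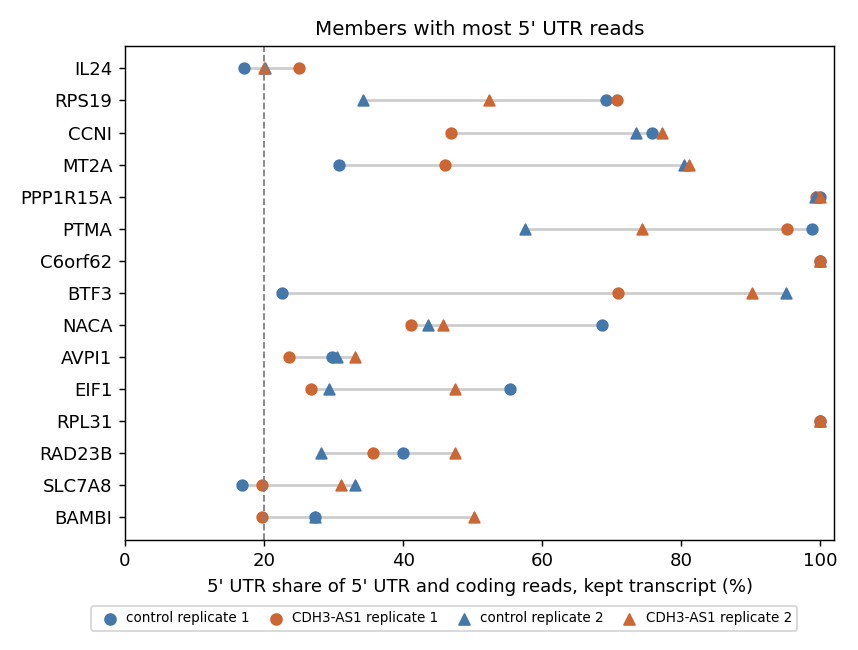
The 5′ UTR share on the kept transcript (horizontal axis, percent) of the 15 members with most 5′ UTR reads; each point is 1 library, colour gives the siRNA and shape the replicate, the grey line spans the 4 libraries and the dashed line marks the 20% threshold. C6orf62, RPL31 and PPP1R15A lie at or near 100% in every library, while BTF3 spans 22.6% to 95.1%.

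A share of 100% was held in every library by C6orf62, RPL31, PTP4A2, RPS20, AZIN1, PDE10A, TSC22D4, ZFAND5, TRAPPC6B, RPL41, TMEM250, KIAA1191, RPL10, DCUN1D5 and GDNF, the 15 with most reads at that share. Their gene shares separate them. C6orf62 stayed at 96.3%, 94.5%, 94.3% and 96.4%, and the phosphodiesterase gene PDE10A at 91.6%, 92.5%, 91.6% and 96.2%. The phosphatase gene PTP4A2 was at 63.0% in CDH3-AS1 replicate 1 and at 87.2% or more in the others. DCUN1D5, a neddylation factor, had a pooled gene share of 45.9%, and ZFAND5 and TSC22D4 had 55.2% and 56.6%. GDNF, a neurotrophic factor, had a gene share of 93.8%, 79.4%, 59.3% and 72.9%, higher in both batch 1 libraries.

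Among members with at least 50 reads in every library, some followed the overall share closely. KLF9, a Krüppel-like transcription factor with a 5′ UTR of 1294 bases, held 63, 169, 87 and 103 reads and had shares of 39.4%, 24.0%, 30.5% and 41.0%. Relative to the overall share it lay at 6.36, 6.15, 5.95 and 5.69 times, a spread of 1.12 from lowest to highest. HAPSTR1 had a spread of 1.13, STARD7, a phosphatidylcholine carrier, 1.13, TLE1 1.14 and TMED7-TICAM2 1.22. TLE1, shown above with its ATG and stop at the very start, held 55, 162, 136 and 139 reads.

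At the other end the multiple varied several-fold. RPLP1, an acidic ribosomal stalk protein, held 267, 612, 87 and 77 reads in its 5′ UTR and 104, 282, 377 and 318 in its coding sequence. Its multiple of the overall share was 11.6, 17.6, 3.65 and 2.70, a spread of 6.49. SEC61B, a subunit of the protein channel of the endoplasmic reticulum, had a spread of 4.71 and TLE5, a short relative of TLE1, one of 4.34. CDKN1B followed with 3.63 and the lipid kinase gene PIP4K2A with 3.40. The batches did not overlap in the multiples of RPLP1, TLE5, CDKN1B and PIP4K2A, though in PIP4K2A they came close, with 5.36 and 2.03 in batch 1 against 5.51 and 6.90 in batch 2.

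Whether CDH3-AS1 siRNA changed footprints in the members was tested with edgeR's quasi-likelihood test across all kept transcripts that passed its low-count filter. In 5′ UTR reads none of 2240 was called at a Benjamini-Hochberg adjusted p under 0.05 (0%), and so 0 of the 687 members tested. Without adjustment, 9 transcripts were under 0.05, 2 of them members. With the batch as a replicate block there were again no calls, with 60 and 14 under 0.05 unadjusted, and DESeq2 made none, with 8 under 0.05.

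In coding reads, the test without the block called 0 of 10281 transcripts (0%) and 0 of 605 members tested, with 202 and 13 under 0.05 unadjusted, and DESeq2 called 2, neither a member. With the replicate block 78 were called (0.759%), 43 higher with CDH3-AS1 siRNA (0.418%) and 35 lower (0.34%). Of these, 2 were members (0.331% of 605), 1 in each direction. The members were thus called no more often than the background. Leaving out control replicate 2, with no block, gave 45 calls, of which 1 was a member, ZNF664 (-3.12 on the log2 scale, adjusted p = 0.0253 by edgeR's quasi-likelihood test).

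The member with more coding reads was FOXE1 (chr9:97853226-97856717), a forkhead transcription factor. Its coding level was 23.2, 61.7, 19.1 and 61.4 CPM, so both CDH3-AS1 libraries were above both controls. The log2 difference with the block was 1.53 (SE 0.33, adjusted p = 0.0164 by edgeR's quasi-likelihood test). Its 5′ UTR held 27, 109, 55 and 82 reads, and the log2 difference in scaled 5′ UTR reads was 1.12 in batch 1 and 1.08 in batch 2, which did not pass the test. The share was 41.5%, 24.6%, 37.7% and 37.8%.

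The member with fewer was ZNF664, a zinc finger gene with a 5′ UTR of 1830 bases. Its coding level was 104, 9.58, 22.2 and 13.7 CPM, lower with CDH3-AS1 siRNA in each batch but by -3.43 in batch 1 and -0.69 in batch 2 on the log2 scale. The log2 difference with the block was -2.13 (SE 0.45, adjusted p = 0.0150 by edgeR's quasi-likelihood test). Without the block, the difference over all libraries was -2.38 and was not called. Leaving out control replicate 1, the library with muscle markers, also without the block, gave -0.89. The 5′ UTR reads were 119, 58, 140 and 41.

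The ratio of 5′ UTR to coding reads was then compared between siRNAs, relative to the change of that ratio over the whole library. Of 2124 transcripts tested by edgeR's quasi-likelihood test, 0 were called (0%), and so 0 of 598 members, with 2 and 1 under 0.05 unadjusted. With the replicate block 1 was called (0.0471%), not a member, with 34 and 7 under 0.05 unadjusted. Neither DESeq2 nor limma made a call. The other 100 members did not pass the filter in both regions and were not tested. The median log2 difference was 0.08 over the members tested and 0.04 over all tested, and it was -0.016 and -0.015 over the members without control replicate 1 and without CDH3-AS1 replicate 1. Of the 598, 265 members moved the same way in both batches (151 higher, 114 lower). Among all 2124 transcripts tested, 44.5% did, so the members were near the background.

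None of the members nearest to a call passed, and all had an adjusted p of 1.00 in edgeR's quasi-likelihood test. CMC4, a small mitochondrial protein, had the smallest unadjusted p, with a log2 difference of 1.86 (SE 0.76), but its coding reads were only 8, 3, 25 and 2. SEC61B differed by 1.63 (SE 0.86), from 1.55 in batch 1 and 1.68 in batch 2, with 53, 251, 54 and 125 reads in its 5′ UTR and 105, 304, 373 and 175 in its coding sequence. Its share was 33.5% and 12.6% in the controls and 45.2% and 41.7% with CDH3-AS1 siRNA, so the groups did not overlap. APAF1, the scaffold of the apoptosome, differed by 1.54 (SE 0.85) and RPS12 by 1.53 (SE 0.91), the latter from 2.97 in batch 1 and 0.21 in batch 2. Single libraries moved these values: without control replicate 1, the library with muscle markers, RPS12 was at 0.58 and CMC4 at 1.22. Without control replicate 2, RPS12 was at 2.64 and SEC61B at 0.93, and without CDH3-AS1 replicate 1 SEC61B was at 1.02.

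On the lower side were DBF4B (-1.70, SE 0.99), a partner of the replication kinase CDC7, FOXO3 (-1.56, SE 1.02) and the phosphatase gene CTDSP1 (-1.37, SE 0.95). DBF4B was at -2.55 in batch 1 and -1.09 in batch 2, at -0.80 without control replicate 1 and at -2.60 without control replicate 2. FOXO3, a forkhead factor of stress and survival, held only 7, 9, 28 and 12 reads in its 5′ UTR, with -1.50 in batch 1 and -1.66 in batch 2. Of the upstream frame genes, ATF4 differed by 0.17 (SE 1.09) and MIEF1 by 1.33 (SE 0.92). MKKS differed by -0.73 (SE 0.92), ATF5 by -0.32 (SE 0.61) and SAT1 by -0.24 (SE 1.40). None of them passed, and AZIN1, PPP1R15A and AMD1 were not tested for the ratio. Standard errors of about 1 on the log2 scale mean that even changes of that size were not detectable here. In simulated data the ratio test recovered 0% of 4-fold changes without the replicate block and 12% with it.

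**Figure D4:**
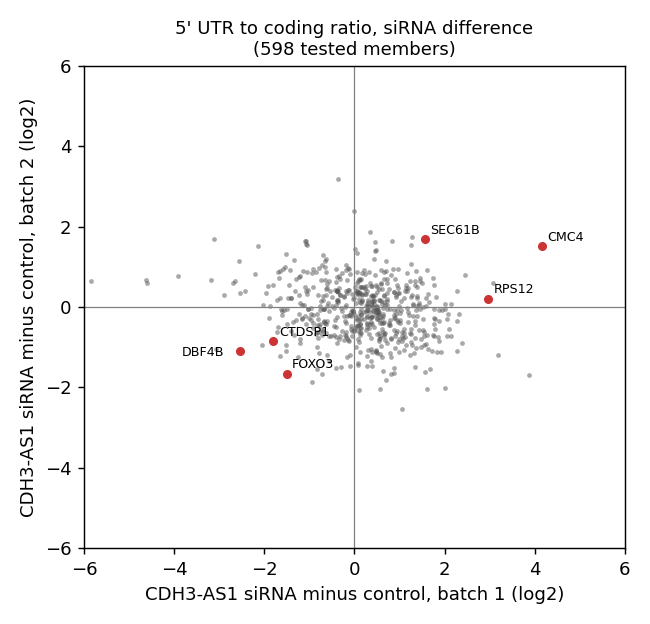
Log2 difference of the 5′ UTR to coding ratio between CDH3-AS1 and control siRNA in batch 1 (horizontal axis) and batch 2 (vertical axis); each point is 1 of the 598 tested members, with 6 of those named in the text in red. The same sign in both batches was found for 265 members and for 44.5% of all transcripts tested. None of the members was called.

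The same ratio was compared between batches in the fit with both siRNA and batch, a comparison added after the data had been seen. It called 206 of 2124 transcripts (9.70%), with 132 higher in batch 2 (6.21%) and 74 lower (3.48%). Of 598 members, 51 were called (8.53%), 31 higher and 20 lower, a fraction near the background. All 51 moved the same way within the control pair and within the CDH3-AS1 pair, which leaves out control replicate 1. The calls were made on these same pairs, so the equal signs largely follow from the choice and are no separate evidence. DESeq2 called 28 of these 51, and 28 were called with reads summed per gene name. That fit has 1 residual degree of freedom per gene and borrows its spread across genes. What differed between the batches is not given in the labels. Marker sums moved with the batch: keratinocyte markers, 2 or 3 of 7 with reads, summed to 10.3 and 8.19 CPM in batch 1 and 30.6 and 35.6 CPM in batch 2, and the 7 melanocyte markers to 23085 and 21447 against 39741 and 31493 CPM. Their part in the result was not tested.

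Members with a higher ratio in batch 2, chosen here after their values were seen, included OAZ2, TLE5 and KCTD12. OAZ2 encodes an ornithine decarboxylase antizyme, a protein that lowers polyamine synthesis. It held 28, 43, 514 and 324 reads in its 5′ UTR and 193, 363, 238 and 154 in its coding sequence, with shares of 12.7%, 10.6%, 68.4% and 67.8%. The batches were far apart and the siRNAs within each batch were close. The log2 difference between batches was 3.71 (SE 0.60, adjusted p = 3.80e-07 by edgeR's quasi-likelihood test), with 4.31 in the control pair and 3.11 in the CDH3-AS1 pair.

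TLE5 held 52, 75, 890 and 581 reads in its 5′ UTR, with shares of 14.8%, 9.46%, 53.3% and 73.5% and a log2 difference of 3.42 (SE 0.59). KCTD12, an auxiliary subunit of GABA-B receptors, held 31, 26, 334 and 220, with shares of 48.4%, 28.0%, 86.1% and 87.0% and a log2 difference of 3.09 (SE 0.64). In both, as in OAZ2, the 5′ UTR reads carried the difference, and scaled coding reads varied less. RILPL1, the member under the overall share in CDH3-AS1 replicate 1, had a log2 difference of 3.60 (SE 0.71) from 10, 5, 145 and 86 reads.

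BTF3, part of the complex that meets new proteins at the ribosome, differed by 3.40 (SE 0.65), but unevenly, with 6.44 in the control pair and 0.88 in the CDH3-AS1 pair. Its 5′ UTR held 12, 320, 1616 and 515 reads. With reads summed over its transcripts the difference was 1.38 (adjusted p = 0.129 by edgeR's quasi-likelihood test), and the call was lost. Its partner NACA had shares of 68.6%, 41.2%, 43.6% and 45.7% and was not called.

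Members with a lower ratio in batch 2 included PTMA, RPLP1, RPF2 and PRPF38B. PTMA, which encodes the small acidic nuclear protein prothymosin alpha, held 644, 1560, 693 and 444 reads in its 5′ UTR and 8, 79, 511 and 153 in its coding sequence. Its share was 98.8%, 95.2%, 57.6% and 74.4%, and the log2 difference was -4.36 (SE 0.60, adjusted p = 5.46e-10 by edgeR's quasi-likelihood test). With reads summed over its transcripts it was -3.26. In PTMA the coding reads on the kept transcript varied most.

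RPLP1 differed by -3.60 (SE 0.59), with 3417, 4260, 517 and 651 CPM of 5′ UTR reads and 63.5, 52.0, 79.0 and 145 CPM of coding reads. Its 5′ UTR level was higher and its coding level lower in batch 1. RPF2, a ribosome assembly factor, differed by -4.35 (SE 0.84) with few reads in its 5′ UTR, 28, 52, 14 and 13. The splicing factor gene PRPF38B differed by -2.95 (SE 0.61), with shares of 49.7%, 41.4%, 10.4% and 12.9%. CDKN1B and RPS19 were also called, at -2.02 (SE 0.59) and -1.91 (SE 0.56). With reads summed over its transcripts, RPS19 was at -1.08 (adjusted p = 0.209 by edgeR's quasi-likelihood test), and its call was lost.

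**Figure D5:**
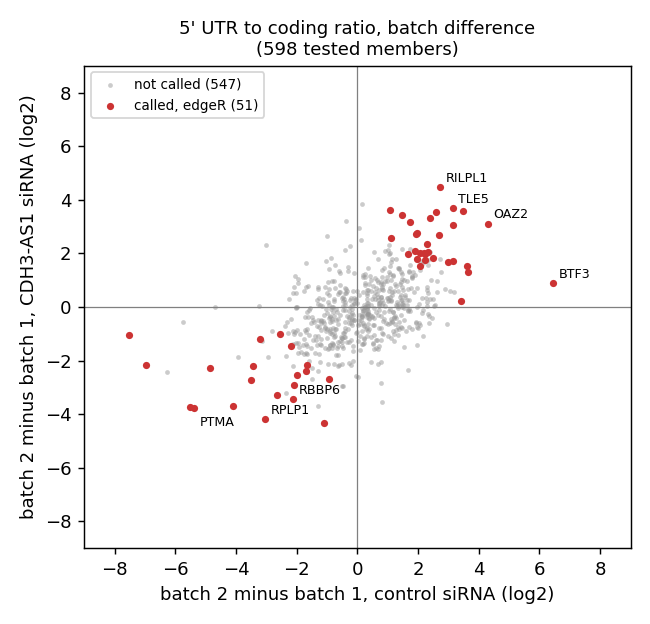
Log2 difference of the 5′ UTR to coding ratio between batch 2 and batch 1 in the control pair (horizontal axis) and the CDH3-AS1 pair (vertical axis) for the 598 tested members; red points are the 51 called by edgeR's quasi-likelihood test. All 51 lie in the quadrants of equal sign, but the calls were made on these same pairs. BTF3 stands apart with 6.44 in the control pair and 0.88 in the CDH3-AS1 pair.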

How the data were processed

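Ribosome footprints of 4 libraries were analysed. Per the file headers, the authors deposited the read count of every transcript's coding sequence and both UTRs, with region lengths, and RPKM values, which were not tested. The submitters' processing notes name hg38 and DESeq2. Not given in the sources used here were the aligner, counter, annotation release, read filters, strand use and how reads across the start codon were assigned. Initiation footprints may have been counted on either side.

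Counts of the kept transcript were tested with edgeR 4.0.16 in R 4.3.3. The settings were TMM within each region, filterByExpr with minimum count 10 and total 15, prior count 2 and a Benjamini-Hochberg threshold of 0.05. The tests were also run on simulated data. The simulated counts were drawn from the fit with the replicate block. Without the block, 0% of 4-fold changes were recovered in 5′ UTR reads, coding reads and the ratio. With the block, 4%, 78% and 12% were recovered, so an absence of calls in 5′ UTR reads or the ratio says little. Alternatives used DESeq2 1.42.0, limma 3.58.1, a replicate block, other filters and each library left out. The labels give same-numbered libraries a shared batch, and their deviations from group means correlated (r = 0.52 for the ratio, 0.54 for 5′ UTR and 0.58 for coding reads), so the numbers pair the libraries. CPM of members are scaled to the kept transcripts' total of the same region with TMM factors, and those of cell type markers to all coding reads. Intervals are 95% Clopper-Pearson intervals and, without molecular identifiers, cover counting error only. Between replicates the 5′ UTR counts differed by 17.6 and 18.3 in chi-square per degree of freedom, far above sampling noise.

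Members and gene lists were chosen with earlier results of these data known. Named were the 15 members with the highest share and the 15 with most reads, the longest and shortest 5′ UTRs, those at the threshold, the upstream frame and melanocyte genes, the widest and narrowest spreads, and members past or nearest to a test's threshold, of which 1 is not reported here. Others, including those of the batch comparison, were chosen after their values were seen. RefSeq entries matched 684 members, and 10 members were named by Ensembl identifier.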

Additional observations from a re-analysis of the deposited data

How the results depend on the processing

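The 698 members became 445 with a share of at least 30%, 205 with 50%, 343 with at least 20 reads in every library and 446 with a share of 20% required in every library. Leaving out 1 library gave 677 to 797, and the other definitions gave 530 to 959, the highest with the transcript kept by reads per base.

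In 5′ UTR reads the siRNA test called 7 transcripts without a filter and 1 to 12 with 1 library left out, none a member. In coding reads it called 78 with the replicate block, 2 by DESeq2, 47 without a filter and 0 to 45 with 1 library left out. Among members it called 2 with the block, 1 without a filter (ZNF664, adjusted p = 0.0307 by edgeR's quasi-likelihood test) and 0 to 1 with 1 library left out. For the ratio, the replicate block gave 1 call and leaving out 1 library 0 to 2, none a member. The replicate block changed no other call. DESeq2 moved the batch comparison from 206 to 133 calls and from 51 to 28 members. Reads summed over transcripts gave 188 calls of 3891 gene names tested and 33 of 639 members, a larger set than the 2124 and 598 tested before. The cause was not tested for any of these. No named difference changed direction, but the members' median ratio difference of 0.08 was -0.016 and -0.015 without replicate 1 of the control and of CDH3-AS1 siRNA.

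Precision is limited by 2 libraries per siRNA, by 5′ UTR counts under 10 in 168 members, and by reads assigned to 1 transcript of several. Footprints alone cannot tell a change in RNA amount from a change in translation.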
